A study of Mus musculus with 6 samples.

Results

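The genes described here are 9 genes that respond to, or carry, transforming growth factor beta (TGF-beta) and YAP signalling: Ctgf, Cyr61, Amotl2, Thbs1, Tgfb1, Tgfb2, Tgfbr1, Tgfbr2 and Tgfbi. They were taken by name from a table of 51165 rows, and all 9 were among the 19795 genes with enough reads to test. RNA sequencing was done on isolated sinusoidal endothelial cells, which form the porous wall of the liver's capillaries. The tested libraries were 3 from C57BL/6 mice of the genotype labelled NICeCA, and they were set against 3 from C57BL/6 wild type mice. Mice of both genotypes were 7 to 8 weeks old and received tamoxifen by intraperitoneal injection. Per the labels tamoxifen activated Notch signalling. The wild type libraries, titled CT, are read here as the control without that activation. The NICeCA libraries are titled NICD. The sources used here do not give the allele, promoter or Cre line behind the name NICeCA. The labels number the NICeCA libraries 1, 2 and 3 and the wild type libraries 1, 3 and 4, and do not say whether each came from its own animal. The p-values rest on the spread among libraries, part of which may be technical.

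TGF-beta ligands are secreted in a latent form, bound to a matrix protein, and must be released before they bind the type II receptor, which then activates the type I receptor and, through it, Smad transcription factors. YAP and its paralog TAZ are coactivators that enter the nucleus when the Hippo kinases are inactive, bind TEAD factors and switch on genes such as Ctgf, Cyr61 and Amotl2. The pathways meet at several genes, Ctgf and Thbs1 among them, and both are studied in liver vessels for their part in matrix deposition and vessel remodelling.

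Totals ran from 26254649 to 30034191 counts per library. Hey1, a direct Notch target, averaged 32.3 ± 7.41 CPM (read counts scaled to library size, with TMM factors) in NICeCA and 5.85 ± 0.588 CPM in wild type libraries (SD, n = 3 each). The defining sinusoidal markers Stab2, Stab1, Lyve1 and Clec4g were counted in every library. The summed level of 10 sinusoidal markers was 21061, 16569 and 11908 CPM in NICeCA 1, 2 and 3, against 23889 to 24694 CPM in the wild type libraries, and each of the 10 averaged lower in NICeCA by its log2 fold change. NICeCA 3 stood apart, with the lowest sinusoidal sum and a summed level of 15 neutrophil and monocyte markers of 17408 CPM, against 182 to 4955 CPM in the other 5 libraries. The share of ribosomal RNA rows was 0.241% to 0.870% in the NICeCA libraries, against 2.24% in wild type 1 and 0.515% and 0.698% in wild type 3 and 4.

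Among the 9 genes, Thbs1 and Ctgf were the ones whose NICeCA libraries stood clearly above wild type, by 14.8-fold and 2.49-fold. The mean of Cyr61 was 1.44-fold higher in NICeCA with overlapping groups, and Amotl2 was at the same mean level within its spread. The ligand genes Tgfb1 and Tgfb2 and the matrix gene Tgfbi overlapped between the genotypes. The receptor genes Tgfbr1 and Tgfbr2 lay slightly lower in every NICeCA library. With edgeR's quasi-likelihood test, adjusted over all genes at a threshold of 0.05, none of the 9 genes passed, where 0.0455% of all genes did (0.0253% higher and 0.0202% lower in NICeCA). At an unadjusted p under 0.05 there were 3 of the 9 (Thbs1, Ctgf and Tgfbr1), where 16.5% of all genes were. DESeq2 called 2 of the 9, Thbs1 and Ctgf, both higher in NICeCA, where it called 5.6% of all genes. Groups did not overlap in 4 of the 9, where that held for 23.4% of all genes. These were Thbs1 and Ctgf, higher in NICeCA like 11.6% of all genes, and Tgfbr1 and Tgfbr2, lower in NICeCA like 11.8%.

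**Figure D1:**
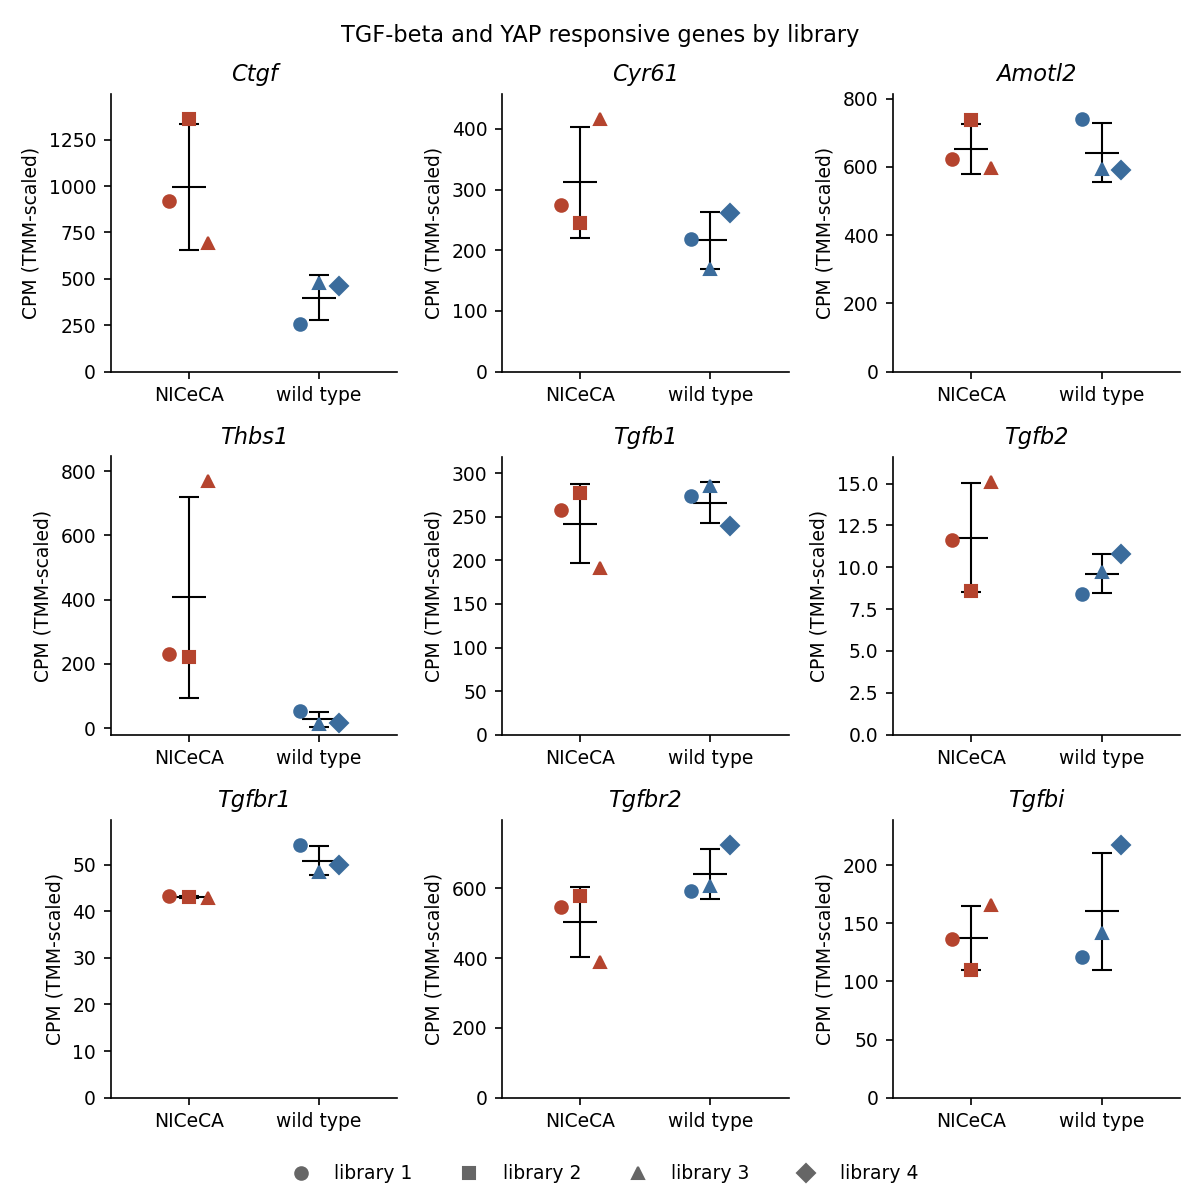
Level of each of the 9 genes in CPM with TMM scaling (y axis, linear) in the NICeCA and wild type libraries. Each symbol is 1 library, and the horizontal line with bars is the mean ± SD of 3 libraries. The NICeCA libraries of Thbs1 sit between 223 and 769 CPM, all above the wild type libraries, while those of Amotl2 sit within the wild type range.

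Ctgf encodes connective tissue growth factor (CCN2), a secreted matricellular protein and the most used readout of YAP activity, also induced by TGF-beta through Smads. It stood at 921, 1362 and 695 CPM in NICeCA 1, 2 and 3, against 257, 475 and 462 CPM in wild type 1, 3 and 4. Every NICeCA library was above every wild type library, and the lowest NICeCA library was 1.46 times the highest wild type library. The log2 fold change was 1.32 ± 0.32 (SE; 95% interval 0.55 to 2.08), which did not pass with edgeR (adjusted p = 0.179) and was called by DESeq2 (adjusted p = 0.00199). NICeCA 2 carried the highest level. Without it the log2 fold change was 1.02 with DESeq2, and the call was lost (adjusted p = 0.0547).

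Ctgf lies on chromosome 10, from 24595442 to 24598683 on the plus strand, in the coordinates of the deposited table. A non-coding row on the minus strand, ENSMUSG00000087400.8 (Gm15270), overlaps it there, and 665 of the 2053 exonic bases of that gene in GENCODE M21 are also exonic in Ctgf. Gm15270 had 7231, 9261 and 4688 counts in NICeCA 1, 2 and 3, against 1801, 3141 and 3019 counts in wild type 1, 3 and 4. That is between 22.4% and 25.9% of the Ctgf count in every library, and its log2 fold change of 1.27 ± 0.32 was close to that of Ctgf. The sources used here do not say whether strand was used in counting, so reads of the 2 genes cannot be told apart where they overlap.

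**Figure D2:**
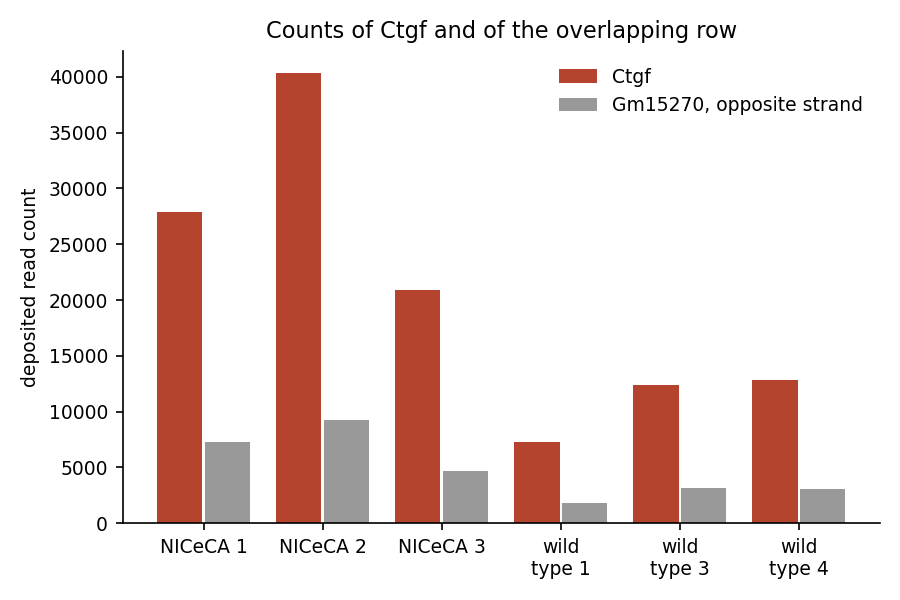
Deposited read counts (y axis, linear) of Ctgf and of the overlapping row Gm15270 on the opposite strand, in each of the 6 libraries. The bars of Gm15270 keep a near-constant share of the Ctgf bars, from 22.4% to 25.9%.

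Cyr61 (CCN1), the closest relative of Ctgf in use as a YAP readout, encodes a secreted matricellular protein that binds integrins. It lies on chromosome 3, from 145646971 to 145649985 on the minus strand. The 250 bases before its start hold 1 match to the core letters of the TEAD site, GGAATG or CATTCC on the other strand, 103 bases ahead of the start. They are shown from RefSeq on build GRCm38.p6 because Cyr61 is a textbook TEAD target, with the matched letters in capitals. The matched letters also occur in the window of Amotl2, of which 30 bases are shown beside it; they lie inside the gene span of the deposited table.
Cyr61, chr3:145649986-145650235, minus strand: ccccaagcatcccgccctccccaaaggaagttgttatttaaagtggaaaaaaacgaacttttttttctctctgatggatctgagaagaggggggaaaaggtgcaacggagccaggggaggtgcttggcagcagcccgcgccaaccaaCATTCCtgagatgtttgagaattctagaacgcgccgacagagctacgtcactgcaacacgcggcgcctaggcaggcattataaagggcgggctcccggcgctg
Amotl2, chr9:102717727-102717756, plus strand: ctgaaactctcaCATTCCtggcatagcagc

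Promoter windows of 300 bases (250 before to 50 after the start) were at hand for 7 of the 9 genes, in 8 windows; Ctgf and Thbs1 have none in the table used. The TEAD letters, searched on both strands, were found in 2 of these 8 windows, those of Cyr61 and Amotl2, and in 14.7% of all 32851 windows. For the YAP and TEAD target list described further on they were in 9 of 21 windows (42.9%), a list whose genes are known in part through TEAD binding. The Smad letters CAGACA or TGTCTG were in 2 windows, 1 each of Tgfb2 and Tgfbr1, against 21% of all windows. The letters TGGGAA or TTCCCA, the core of the site bound by RBPJ, the DNA-binding partner of Notch, were in none of the 8 windows and in 25.6% of all. A match of 6 letters describes the sequence and is no evidence of binding.

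Cyr61 stood at 274, 245 and 417 CPM in NICeCA 1, 2 and 3, against 219, 169 and 261 CPM in wild type 1, 3 and 4. NICeCA 3 was the highest library, and NICeCA 2 lay below wild type 4. The log2 fold change of 0.53 ± 0.24 had a 95% interval of -0.05 to 1.1 and was not called (adjusted p = 0.337 with edgeR and 0.277 with DESeq2). Without NICeCA 3 it was 0.26. The order of the NICeCA libraries differed between the CCN genes: Ctgf was highest in NICeCA 2 and lowest in NICeCA 3, while Cyr61 was highest in NICeCA 3 and lowest in NICeCA 2. In RPKM (reads scaled to gene length and library total), Ctgf was 2.84, 4.70 and 1.41 times the level of Cyr61 in NICeCA 1, 2 and 3. In wild type 1, 3 and 4 it was 0.992, 2.38 and 1.49 times that level, so the ratio overlapped between the genotypes.

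Amotl2 encodes an angiomotin-like junction scaffold that holds YAP in the cytoplasm and is itself a YAP target. Its level was 624, 737 and 598 CPM in NICeCA 1, 2 and 3, against 741, 593 and 591 CPM in wild type 1, 3 and 4. The groups overlapped throughout. At 0.02 ± 0.15, the log2 fold change had a 95% interval of -0.34 to 0.39, so a difference of the size of the Ctgf estimate lies outside the interval. Adjusted p was 0.960 with edgeR and 0.973 with DESeq2.

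Thbs1 encodes thrombospondin-1, a large secreted glycoprotein that restrains vessel growth through the receptors CD36 and CD47 and can release TGF-beta from its latent complex. It lies on chromosome 2, from 118111890 to 118127133 on the plus strand. It had 6971, 6592 and 23150 counts in NICeCA 1, 2 and 3, against 1505, 316 and 483 counts in wild type 1, 3 and 4. These counts are 230, 223 and 769 CPM in NICeCA, against 53.1, 12.1 and 17.4 CPM in wild type. The lowest NICeCA library was 4.19 times the highest wild type library. Both groups were widely spread, with the highest library 3.45 times the lowest in NICeCA and 4.39 times the lowest in wild type.

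The log2 fold change of Thbs1 was 3.88 ± 0.76, with a 95% interval of 2.09 to 5.68. It ranked 14 of 19795 by the size of the change and 189 by its p. It did not pass with edgeR (adjusted p = 0.139), and DESeq2 called it (adjusted p = 5.2e-04). DESeq2 also called it without each library in turn. The value was 3.04 without NICeCA 3 (adjusted p = 0.0148) and 4.78 without wild type 1 (adjusted p = 2.5e-06). A short non-coding row on the opposite strand, ENSMUSG00000101859.1 (Gm29233), shares 208 of its 281 exonic bases with Thbs1 and had between 1.90% and 5.59% of its count.

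Thbs1 is also made by blood and stromal cells. Marker sums of other cell types differed between libraries as well, and not all of them in the order of Thbs1. All 15 neutrophil and monocyte markers had a positive log2 fold change, with a median of 2.41 against -0.01 for all genes. Of the 15, 10 were higher in NICeCA without overlap between groups, where 11.6% of all genes were. Of these markers edgeR called none and DESeq2 called 2, Elane and Camp. The summed level of the 15 was 3481, 4955 and 17408 CPM in NICeCA 1, 2 and 3, against 1143, 182 and 3136 CPM in wild type 1, 3 and 4. The part of these and the following cell types in the Thbs1 result was not tested. Kupffer cell and macrophage markers summed to 1617, 1140 and 241 CPM in NICeCA 1, 2 and 3, against 155, 208 and 2130 CPM in wild type 1, 3 and 4. T and NK cell markers were positive in 14 of 14 tested (median log2 fold change 1.55), and their sum was 37.6, 112 and 140 CPM in NICeCA 1, 2 and 3, against 66.95, 12.3 and 10.4 CPM in wild type 1, 3 and 4. B cell markers were positive in 10 of 10, with a median of 1.63. DESeq2 called 5 of them higher, where it called 3.71% of all genes higher. Without overlap between groups, 7 were higher in NICeCA, where 11.6% of all genes were. Mesothelial markers were at 121, 84.6 and 295 CPM in NICeCA 1, 2 and 3, against 114, 93.8 and 205 CPM in wild type 1, 3 and 4.

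Platelets carry much of the thrombospondin-1 and TGF-beta 1 of blood. Of 12 platelet and megakaryocyte markers, Pf4, Ppbp and Gp1bb were listed at 0 in every library. The platelet glycoprotein gene Gp9 had 22, 43 and 38 counts in NICeCA 1, 2 and 3, against 41, 16 and 12 in wild type 1, 3 and 4. Gp5 had 16, 19 and 28 counts in NICeCA 1, 2 and 3, against 1, 5 and 14 in wild type 1, 3 and 4, and did not overlap between groups, with a log2 fold change of 1.51 ± 0.73 that neither tool called. Gp6 had 6, 2 and 8 counts in NICeCA 1, 2 and 3, against 0, 0 and 4 in wild type 1, 3 and 4, and Treml1 had 5, 4 and 4 in NICeCA, against 0, 0 and 3 in wild type. The sum of the 12 was 273 to 334 CPM in NICeCA, against 251 to 555 CPM in wild type. It came mostly from Itgb3 and Clec1b, so it says little of the other markers. Every NICeCA library of Clec1b was below every wild type library. Its log2 fold change of -1.03 ± 0.34 was called by DESeq2 (adjusted p = 0.0481) and not by edgeR (adjusted p = 0.228). Itgb3 at -0.08 ± 0.27 and Itga2b at 0.15 ± 0.28 overlapped between groups and were not called. In bulk RNA, fewer cells of a type and less RNA per cell cannot be told apart.

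**Figure D3:**
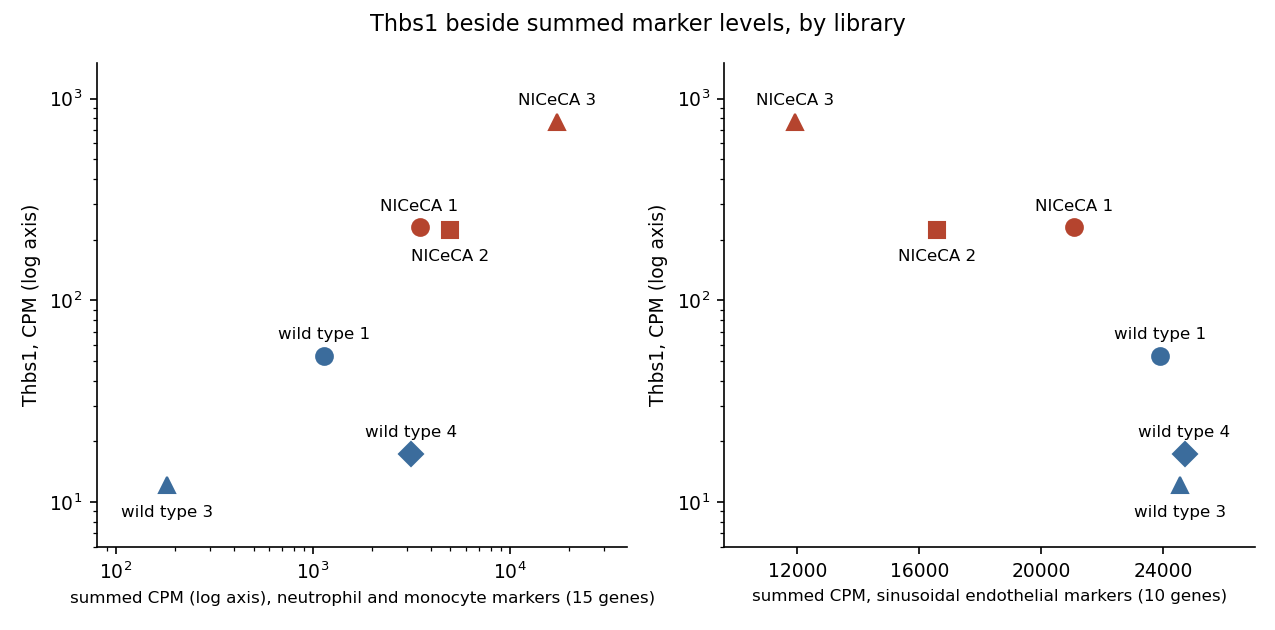
Thbs1 in CPM (y axis, log) against the summed CPM of 15 neutrophil and monocyte markers (left, log axis) and of 10 sinusoidal endothelial markers (right, linear axis), 1 symbol per library. NICeCA 3 has the highest Thbs1, the highest neutrophil and monocyte sum and the lowest sinusoidal sum.

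Tgfb1, the main TGF-beta ligand of liver, was abundant and overlapped between genotypes. Its level was 258, 277 and 191 CPM in NICeCA 1, 2 and 3, against 274, 286 and 240 CPM in wild type 1, 3 and 4. At -0.14 ± 0.16, its log2 fold change had a 95% interval of -0.52 to 0.24 (adjusted p = 0.719, edgeR). Without NICeCA 3, its lowest library, the value was 0.01. Tgfb2, a ligand best known from heart and eye development, was at 11.6, 8.61 and 15.1 CPM in NICeCA 1, 2 and 3, against 8.40, 9.70 and 10.8 CPM in wild type 1, 3 and 4. Its groups overlapped too, and its log2 fold change of 0.29 ± 0.23 did not pass (adjusted p = 0.571, edgeR). Per length, Tgfb1 was between 49.7 and 127 times as abundant as Tgfb2 in the NICeCA libraries, against 87.6 to 128 times in wild type.

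The receptor genes both lay lower in NICeCA, by small amounts. Tgfbr1, the signalling type I receptor, was at 43.2, 43.1 and 42.8 CPM in NICeCA 1, 2 and 3, against 54.3, 48.4 and 49.99 CPM in wild type 1, 3 and 4. The NICeCA libraries were nearly identical to each other, with an SD of 0.209 CPM. The log2 fold change of -0.24 ± 0.09 had a 95% interval of -0.46 to -0.03 and was not called (adjusted p = 0.265 with edgeR and 0.305 with DESeq2). Tgfbr2, the ligand-binding type II receptor, was at 546, 576 and 387 CPM in NICeCA 1, 2 and 3, against 593, 606 and 724 CPM in wild type 1, 3 and 4. NICeCA 3 was the lowest library, as it was for the summed sinusoidal and pan-endothelial markers, whose part in this value was not tested. Its log2 fold change was -0.35 ± 0.18 (95% interval -0.78 to 0.08; adjusted p = 0.395, edgeR), and without NICeCA 3 it was -0.19.

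Tgfbi encodes a secreted matrix protein named for its induction by TGF-beta. It was at 137, 110 and 166 CPM in NICeCA 1, 2 and 3, against 121, 142 and 217 CPM in wild type 1, 3 and 4. Wild type 4 was the highest library, and it also held the highest sum of Kupffer and macrophage markers, cells that express Tgfbi. The other libraries did not follow that order. NICeCA 3, next highest in Tgfbi, had a sum of 241 CPM, against 1617 and 1140 CPM in NICeCA 1 and 2. The part of these cells was not tested. The log2 fold change of Tgfbi, -0.22 ± 0.25, did not pass (adjusted p = 0.705, edgeR), and it was 0.06 without wild type 4. Ctgf and Thbs1 on one side and Tgfbi on the other, all listed as TGF-beta targets, had estimates of opposite sign, and of these 3 the intervals of Ctgf and Thbs1 left out 0.

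**Figure D4:**
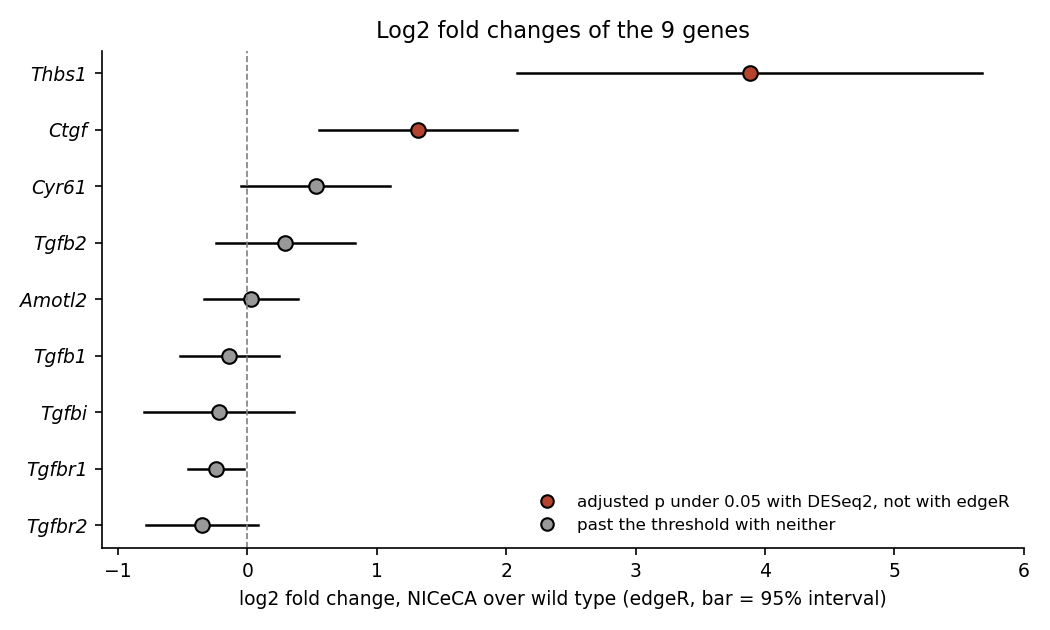
Log2 fold change, NICeCA over wild type, of each of the 9 genes (x axis) with its 95% interval from edgeR, sorted by size. Red points passed an adjusted p of 0.05 with DESeq2 and not with edgeR, grey points passed with neither, and the intervals of Thbs1, Ctgf and Tgfbr1 leave out 0.

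Levels of different genes can be compared per length, from the deposited RPKM values. In NICeCA libraries the order of mean RPKM was Ctgf at 424 ± 139, Cyr61 at 159 ± 50.2, Amotl2 at 144 ± 14.4, Tgfb1 at 119 ± 20.2, Tgfbr2 at 108 ± 20.0, Thbs1 at 72.6 ± 57.2, Tgfbi at 52.9 ± 11.7, Tgfbr1 at 7.12 ± 0.104 and Tgfb2 at 1.48 ± 0.434 (SD, n = 3). The ranges of Cyr61 and Amotl2, of Tgfb1 and Tgfbr2, of Tgfbr2 and Thbs1 and of Thbs1 and Tgfbi overlapped. Cyr61 also overlapped with Tgfb1, and Thbs1 with Tgfb1, Amotl2 and Cyr61, so the order is not firm among these genes. In wild type libraries Ctgf at 162 ± 52.6, Amotl2 at 133 ± 14.5, Tgfbr2 at 130 ± 15.5, Tgfb1 at 123 ± 12.2 and Cyr61 at 103 ± 21.3 RPKM each overlapped with the next. Below them stood Tgfbi at 58.0 ± 18.7, Tgfbr1 at 7.92 ± 0.266, Thbs1 at 4.52 ± 3.55 and Tgfb2 at 1.13 ± 0.158 RPKM, with Tgfbr1 and Thbs1 overlapping. By mean RPKM among the 19795 tested genes, Thbs1 ranked 810 in NICeCA and 9187 in wild type libraries, and Ctgf ranked 87 in NICeCA and 310 in wild type libraries. The type II receptor gene Tgfbr2 exceeded the type I receptor gene Tgfbr1 per length in every library, by 11.8 to 17.4 times in NICeCA and 14.2 to 18.8 times in wild type.

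The genes of nearest profile were sought for the 4 members of smallest p, as the root mean square difference of centred log2 CPM over the 6 libraries, among 13271 named genes with a mean of at least 1 CPM. For Thbs1 they were Igha, an antibody heavy chain gene of plasma cells, at 0.485 log2 units, the cystine transporter gene Slc7a11 at 0.596 and the neutrophil elastase gene Elane at 0.712. These include genes of blood cells, whose part in the likeness was not tested. Igha was at 86.0, 130 and 337 CPM in NICeCA 1, 2 and 3, against 40.9, 10.7 and 15.4 CPM in wild type 1, 3 and 4. The sum of 10 B cell markers was 30.3 to 39.0 CPM in NICeCA, against 9.73 to 23.5 CPM in wild type. For Ctgf they were Notch3 at 0.262, the microfibril gene Fbn1 at 0.295 and the adhesion receptor gene Gpr126 at 0.306. Fbn1, which encodes fibrillin-1, the protein that anchors latent TGF-beta complexes, was at 84.2, 131 and 90.3 CPM in NICeCA 1, 2 and 3, against 42.4, 60.1 and 47.6 CPM in wild type 1, 3 and 4, and DESeq2 called it (adjusted p = 0.00108). For Tgfbr1 they were Mnat1, Ccdc59 and Vamp2, at 0.012 to 0.021. For Cyr61 they were Nanos1, Prune and Gpi1, at 0.067 to 0.083. The measure is smaller for members that vary little, so its size cannot be compared between members.

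The wider pathway was read from 7 lists, which share members with each other and hold the 9 genes. None of their genes passed with edgeR. Over all tested genes DESeq2 called 733 higher (3.71%) and 374 lower (1.89%), 9571 genes (48.4%) had a positive log2 fold change, and the median was -0.01.

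Among 16 genes of TGF-beta ligands, latency and activation, DESeq2 called 3 higher and 0 lower, 11 were positive, and the median log2 fold change was 0.15. Without wild type 1 that median was 0.0096, and without wild type 4 it was 0.40. The called genes were Thbs1, Ltbp2 and Ltbp4, the last 2 being latent TGF-beta binding proteins. Ltbp4, which also organises elastic fibres, was at 3506, 3898 and 2610 CPM in NICeCA 1, 2 and 3, against 2434, 1644 and 1418 CPM in wild type 1, 3 and 4 (DESeq2 adjusted p = 0.0198). Every NICeCA library was above every wild type library. Ltbp2 was at low levels, 3.73 ± 1.12 CPM in NICeCA and 0.956 ± 0.433 CPM in wild type (DESeq2 adjusted p = 0.00138). The membrane protease gene Mmp14, which can release TGF-beta, had a log2 fold change of -0.48 ± 0.19 and was called by neither tool.

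Among 16 genes of receptors, co-receptors and Smads, 5 were positive and 11 negative, with a median of -0.18 (-0.11 without NICeCA 3), and DESeq2 called 1 higher and 0 lower. The called gene was Acvrl1, the endothelial type I receptor ALK1, at 112, 134 and 182 CPM in NICeCA 1, 2 and 3, against 88.6, 78.8 and 92.3 CPM in wild type 1, 3 and 4. Its log2 fold change was 0.72 ± 0.18 (adjusted p = 0.186 with edgeR and 0.0207 with DESeq2), the opposite sign to the value of Tgfbr1. Smad5, which acts downstream of ALK1, was at -0.25 ± 0.09, and the activin receptor gene Acvr1b at 0.32 ± 0.14, with no call by either tool. Smad2, Smad3 and Smad4, the carriers of the canonical TGF-beta signal, had log2 fold changes of 0.04 ± 0.10, 0.07 ± 0.09 and 0.01 ± 0.09. Of 13 tested inhibitors, 8 were positive, the median was 0.10 (0.037 to 0.25 without each library), and DESeq2 called 0 higher and 1 lower, Dcn. Dcn encodes decorin, a proteoglycan that binds TGF-beta and is made mainly by stellate cells and fibroblasts; it was at 239, 159 and 211 CPM in NICeCA 1, 2 and 3, against 280, 306 and 424 CPM in wild type 1, 3 and 4. The sum of 12 stellate and fibroblast markers, Dcn included, was 647 to 743 CPM in NICeCA and 782 to 1159 CPM in wild type. Tgif1 at 0.50 ± 0.16, Bambi at -0.57 ± 0.20 and Smad6 at 0.44 ± 0.16 went both ways and were not called.

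**Figure D5:**
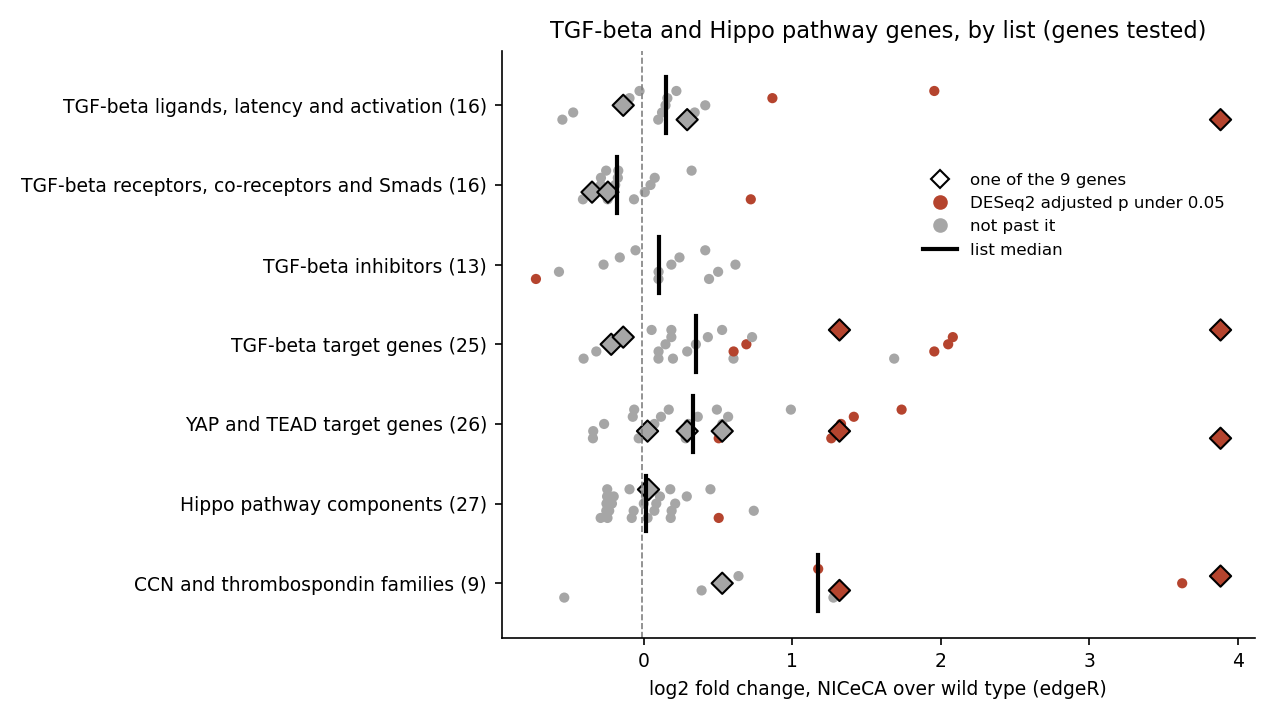
Log2 fold change, NICeCA over wild type (x axis), of every tested gene in 7 lists, with the number tested in brackets. Diamonds are the 9 genes, red marks an adjusted p under 0.05 with DESeq2, vertical bars are list medians and the dashed line is the median of all genes. List medians run from -0.18 for receptors and Smads to 1.17 for the CCN and thrombospondin families. The last list holds 3 of the 9 genes, and its median was 0.91 without them.

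Of 25 tested TGF-beta target genes, 21 were positive, the median log2 fold change was 0.35, and DESeq2 called 7 higher and 0 lower. Without the 4 of the 9 genes in it, 19 of 21 were positive and the median was 0.35. The smallest p belonged to Acta2, smooth muscle actin, at 9.66 ± 3.51 CPM in NICeCA and 2.33 ± 0.206 CPM in wild type, and Col1a1, a fibrillar collagen gene, at 51.2 ± 19.4 CPM in NICeCA and 12.1 ± 3.68 CPM in wild type. The other called genes were Thbs1, Ltbp2, Ctgf, the collagen gene Col1a2 and Tagln, an actin-binding protein of contractile cells. Acta2 and Col1a1 are also markers of smooth muscle and of stellate cells and fibroblasts. The summed smooth muscle markers were 152 to 189 CPM in NICeCA, against 134 to 173 CPM in wild type. This sum came mostly from Smtn, whose groups overlapped, so it says little of the other markers. Of 8 tested smooth muscle markers 6 were positive. DESeq2 called 4 higher, Myh11, Acta2, Cspg4 and Tagln, all without overlap between groups, and edgeR called Myh11. Myh11 was at 16.7 ± 2.21 CPM in NICeCA and 5.55 ± 0.103 CPM in wild type, and Tagln at 16.6 ± 0.209 and 10.9 ± 2.01 CPM. Of 12 stellate and fibroblast markers 8 were negative, and DESeq2 called 2 higher (Col1a1 and Col1a2) and 5 lower, with the sum given above lower in NICeCA. The part of these cells in the list's values was not tested. Smad7, Skil and Pmepa1, feedback regulators that Smads induce directly, had log2 fold changes of 0.10 ± 0.17, 0.18 ± 0.30 and 0.10 ± 0.15, overlapped between groups and were not called. Without wild type 1 the list median was 0.58 and without wild type 3 it was 0.23.

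Of 26 tested YAP and TEAD target genes, 20 were positive, the median log2 fold change was 0.33, and DESeq2 called 7 higher and 0 lower. Without the 5 of the 9 genes in it, 15 of 21 were positive, with a median of 0.30 and 5 called. The smallest p in the list belonged to Ajuba, a LIM-domain scaffold that restrains the Hippo kinases, at 83.9, 129 and 131 CPM in NICeCA 1, 2 and 3, against 35.1, 28.4 and 40.0 CPM in wild type 1, 3 and 4. Its log2 fold change was 1.74 ± 0.21 (adjusted p = 0.0706 with edgeR and 3.5e-10 with DESeq2). Igfbp3, an insulin-like growth factor carrier, was at 100, 107 and 131 CPM in NICeCA 1, 2 and 3, against 58.4, 48.7 and 34.2 CPM in wild type 1, 3 and 4, and DESeq2 called it (1.9e-05). The phosphatase gene Ptpn14, whose product binds YAP, had a log2 fold change of 0.50 ± 0.12 (DESeq2 adjusted p = 0.0246). The remaining called genes were Dock5 at 1.41 ± 0.38 and Gadd45a at 1.33 ± 0.39, both highest in NICeCA 3. Ankrd1, a common YAP readout, was at 0.53 ± 0.47, Axl at 0.36 ± 0.59 and Lats2 at 0.07 ± 0.13, with overlapping groups and no call. The list median was 0.17 without NICeCA 3 and 0.59 without wild type 4.

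The Hippo pathway components were balanced, with 14 of 27 positive and a median log2 fold change of 0.01 (-0.045 to 0.0078 without each library, negative in 4 of 6). DESeq2 called 1, Ptpn14. Yap1 was at 122, 123 and 92.8 CPM in NICeCA 1, 2 and 3, against 130, 136 and 135 CPM in wild type 1, 3 and 4, a log2 fold change of -0.25 ± 0.13 that neither tool called. Wwtr1, which encodes TAZ, was at 0.11 ± 0.17. The kinase gene Stk4 (MST1) was at 0.74 ± 0.26, with no overlap between groups, and Map4k4 at 0.29 ± 0.15, and neither was called. Tead1 was at 76.7, 78.7 and 73.1 CPM in NICeCA 1, 2 and 3, against 77.8, 71.2 and 79.6 CPM in wild type 1, 3 and 4.

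In the CCN and thrombospondin families, 8 of 9 tested genes were positive, with a median log2 fold change of 1.17. DESeq2 called 4 higher and 0 lower: Ctgf, Thbs1, Wisp2 and Thbs3. This list holds Ctgf, Thbs1 and Cyr61, and without them 5 of 6 genes were positive. The median was then 0.91, and DESeq2 called 2 higher. With genes kept at 1 CPM or more in at least 3 libraries, the median of the whole list was 0.87. Wisp2 (CCN5) was called at very low levels, 0.594, 1.28 and 0.531 CPM in NICeCA 1, 2 and 3, against 0.0353, 0.0766 and 0.0721 CPM in wild type 1, 3 and 4. It passed the count filter only through its NICeCA libraries. Thbs3 was at 2.36 ± 0.477 CPM in NICeCA and 1.04 ± 0.108 CPM in wild type. Thbs2, the nearest relative of Thbs1, was at 15.7, 11.4 and 7.74 CPM in NICeCA 1, 2 and 3, against 14.4, 17.4 and 18.7 CPM in wild type 1, 3 and 4. Its log2 fold change was -0.54 ± 0.26, opposite in sign to that of Thbs1, and it was not called.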

How the data were processed

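Total RNA of 6 isolates was sequenced as paired reads, per the labels' protocols. The authors deposited 1 table of raw read counts per gene with RPKM beside each count. Over values of at least 50 counts the RPKM equals the count scaled by gene length and library total, with a largest relative gap of 5e-06. The sources used here do not name the aligner, counter, build or use of strand; gene coordinates are those of the deposited table. Genes were kept by filterByExpr (minimum count 10), scaled by TMM and tested with edgeR 4.0.16 (glmQLFit, glmQLFTest) in R 4.3.3, with Benjamini-Hochberg adjustment over all 19795 genes. DESeq2 1.42.0 on the same genes is the named alternative. The SE is the log2 fold change over the root of F, and 95% intervals use the same fit's t distribution. CPM is TMM-scaled, with 0.5 added for log2 profiles. The 9 genes, lists and tests were chosen with earlier results of these data known. From each list the 4 genes of smallest p are named. Hey1 lies outside the lists, and its test is not given. Dock5, Gadd45a, Smad7, Skil, Pmepa1, Smad2, Smad3, Smad4, Ankrd1, Axl, Lats2, Wwtr1 and Tead1 were chosen after their values were seen. So were Thbs2, Col1a2, Tagln, Camp, Myh11, Cspg4, Smtn, Gp9, Gp5, Gp6, Treml1, Clec1b, Itgb3 and Itga2b. A listing at 0 in every library is not read as absence. Replicate number pairs nothing known. Promoters come from RefSeq, matched by gene ID.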

Additional observations from a re-analysis of the deposited data

How the results depend on the processing

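The 9 genes were refitted under 14 alternatives chosen beforehand and, after the data had been seen, with DESeq2 without each library. In all 20 settings Thbs1 (3.04 to 4.78), Ctgf (1.02 to 1.53), Cyr61 (0.26 to 0.81) and Tgfb2 (0.07 to 0.55) kept a positive log2 fold change, and Tgfbr1 (-0.28 to -0.15) and Tgfbr2 (-0.46 to -0.19) a negative one. Amotl2 changed sign with the replicate number as a block (-0.12) and without NICeCA 2 (-0.075 with edgeR, -0.074 with DESeq2), wild type 3 (-0.031 and -0.032) or wild type 4 (-0.036 and -0.031). Without each library edgeR gave -0.075 to 0.13. Tgfbi changed sign with the block (0.20) and without wild type 4 (0.057 and 0.065), where edgeR without each library gave -0.39 to 0.057. Tgfb1 did so without NICeCA 3 (0.0053 and 0.0087), where edgeR without each library gave -0.25 to 0.0053. The cause was not tested.

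The count of the 9 genes past the threshold was 0 with edgeR, 2 with DESeq2 (Ctgf and Thbs1), and 1 with no filter (Thbs1, adjusted p = 0.0403). It was 0 without each library with edgeR, and 1 without NICeCA 2 (Thbs1) to 2 without each other library with DESeq2. Over all genes edgeR called 9 (5 higher, 4 lower), DESeq2 1107, no filter 111, and library totals alone 8 (6 higher, 2 lower). Leaving out each library gave 0 to 14 genes with edgeR, the 0 counts being without NICeCA 3 or any 1 wild type library, and 389 (without NICeCA 3) to 1454 (without wild type 1) with DESeq2, with 1388 and 528 without NICeCA 1 and 2 and 604 and 1176 without wild type 3 and 4. A block on the replicate number gave 0 calls. The labels' numbers 1 and 3 occur in both genotypes, while NICeCA 2 and wild type 4 are each alone in their number. With the block those 2 libraries do not bear on the difference between genotypes, which rests on libraries 1 and 3 of each. This also holds for the sign changes of Amotl2 and Tgfbi with the block. Deviations of same-numbered libraries from their group means had correlations of -0.21 and -0.30 across genes. For libraries of different number they ran from -0.26 to 0.24. With 2 same-numbered pairs this cannot decide whether libraries were paired. The block moved the list medians to 0.56 for ligands and latency, 0.79 for YAP and TEAD targets, -0.07 for inhibitors and -0.12 for Hippo components. Wisp2 rests on 1 or 2 counts per wild type library, and depth limits its value.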
